A study of Lithospermum officinale with 3 samples.

Results

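The unigenes described here are 82 transcripts of the medicinal borage relative *Lithospermum officinale*, whose counts stepped down from root through stem to leaf. A unigene is a sequence assembled from the reads without a genome, and 77047 unigenes were measured. The 82 were chosen by their own counts: the 100 unigenes with the largest summed expected count were set aside, each library was scaled by the sum of its remaining counts, and a unigene was kept where it had 300 or more counts in root, a root to stem ratio of scaled counts from 2 to below 8 and a stem to leaf ratio from 2 to below 4. A zero count was to be taken as 0.5, but none of the 82 had a zero in any library. Of the 3019 unigenes outside the 100 most counted that reached the root floor, 2.72% met both ranges. Without the upper limits of the ranges, 6.23% would have (188 unigenes). The gradient is therefore how these unigenes were found, and the ratios below are a description, with no test.

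Oligo(dT) beads were used to isolate messenger RNA from root, stem and leaf of untreated plants that were 2 years old and grew outdoors, and was sequenced as paired reads from strand-specific libraries. There was 1 library per tissue, so no value carries a replicate error, and p-values could not be computed. The sources used here do not say whether 1 plant gave all tissues or whether plants were pooled. Intervals given with ratios are exact conditional binomial 95% intervals and those given with shares are exact binomial 95% intervals; both cover counting error only, and the reads were not independent molecules where they were copied in amplification.

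Roots of the genus *Lithospermum* are known for specialised metabolites, among them the red naphthoquinone pigments that related species such as *L. erythrorhizon* deposit in the root bark. The stem carries the vascular tissue that joins root and leaf, and it shares cell types with both organs. In bulk tissue, a lower level in stem or leaf can come from fewer cells of a type or from less RNA of a transcript per cell, and these cannot be told apart. No gene name or sequence stands beside an ID in the files, so the roles of the 82 unigenes were not analysed here and no sequence is shown. They are named by ID.

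Expected counts summed to 10045956 for root, 4469828 for stem and 3490670 for leaf. Without the 100 most counted unigenes, whose share was 56.7% for root, 43.5% for stem and 59.0% for leaf, the sums were 4351427 for root, 2525988 for stem and 1432056 for leaf. A unigene with no count could have had up to 3 counts, which per 1000000 counts of this remainder is 0.689 for root, 1.19 for stem and 2.09 for leaf.

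Levels of the 82 unigenes covered a wide range in each tissue. Their level per length in root ran from 15.0 to 1474 TPM (transcripts per 1000000 transcripts, as deposited by the authors), with a median of 70.0 TPM. In stem it ran from 3.6 to 298 TPM with a median of 18.9 TPM, and in leaf from 0.90 to 78.6 TPM with a median of 5.29 TPM. A level of 100 TPM was reached by 29 of the 82 in root, by 4 in stem and by 0 in leaf. A level of 10 TPM was reached by 82 in root, by 64 in stem and by 22 in leaf. The floor on root counts favours high levels in root, and the upper limits of both ratios keep leaf levels from falling far below them. These numbers are therefore not read as persistence in leaf, and shares over all unigenes past the floor are not given. In leaf, 81 of the 82 reached 1 TPM. The exception was Unigene48588, at 0.90 TPM from 8 counts.

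Ranked among all 77047 unigenes by TPM, the members moved down the order from the root library to the leaf library. Rank follows TPM and the rule required a fall at both steps, so this restates the selection. The other 2937 unigenes past the root floor fell too, with median TPM of 47.2 (root), 26.2 (stem) and 15.3 (leaf). The median rank of the members was 1272 in the root library, 4790 in the stem library and 14384 in the leaf library. Of the 82, 37 were among the 1000 unigenes of highest TPM for root, 10 for stem and 3 for leaf. Together they held 1.83% of the root counts outside the 100 most counted (interval 1.813% to 1.838%), 0.561% of those in stem (0.552% to 0.5704%) and 0.226% of those in leaf (0.2179% to 0.2335%). The sum was spread over the members in much the same way in each library: the 10 most counted members held 34.2% of the member counts for root, 34.4% for stem and 34.9% for leaf. Of the 10 most counted in root, 8 were also among the 10 most counted members in stem and 7 in leaf. The rule bounded both ratios of every member, which favours this likeness between libraries, so nothing is read from it.

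**Figure D1:**
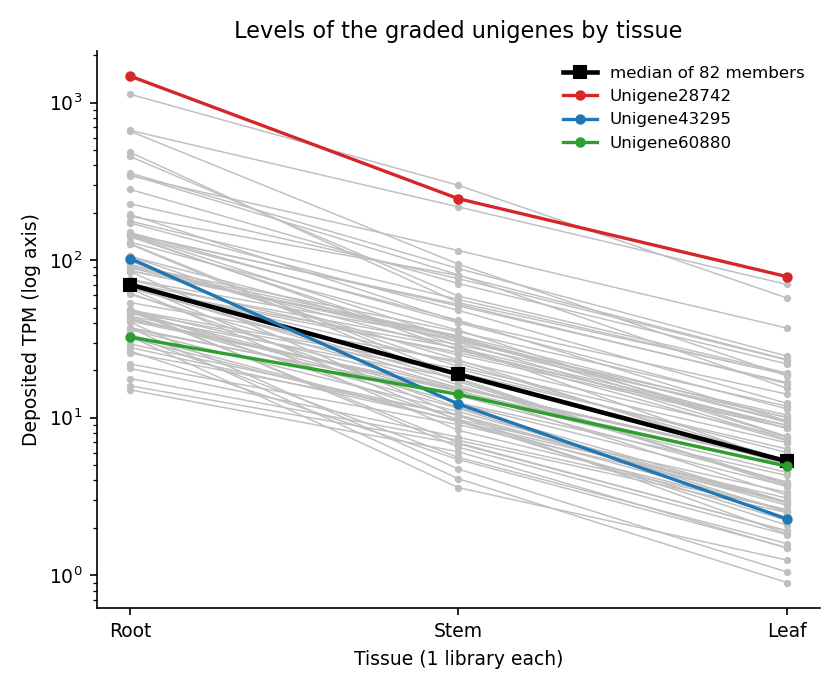
Deposited TPM (log axis) of each of the 82 graded unigenes in the root, stem and leaf libraries, 1 library per tissue; grey lines join the values of 1 unigene, black squares are the medians, and 3 named unigenes are coloured. Medians were 70.0 TPM in root, 18.9 TPM in stem and 5.29 TPM in leaf, and every line runs downward because the rule chose such unigenes.

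The highest levels belonged to 4 short unigenes, the only members at 500 TPM or more in root. The first pair is named by the rule on root TPM and the second was singled out after the values were seen. Unigene28742 (584 nt), the shortest member, stood at 1474 TPM in root, 245 TPM in stem and 78.6 TPM in leaf, from 4303, 476 and 123 counts. It ranked 56th of all unigenes by TPM in root, 185th in stem and 533rd in leaf, so it remained an abundant transcript in all 3 organs. Its root to stem ratio was 5.25 (4.77 to 5.78) and its stem to leaf ratio 2.19 (1.8 to 2.7).

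Unigene52886 (816 nt) was the most counted member, with 5159 counts in root, 906 in stem and 141 in leaf. Its level was 1130 TPM in root, 298 TPM in stem and 57.6 TPM in leaf. On the scale of the rule its steps were nearly equal. They were 3.31 from root to stem (3.08 to 3.55) and 3.64 from stem to leaf (3.05 to 4.38). On deposited TPM its stem to leaf step was the larger. By TPM, Unigene52886 was above Unigene28742 in stem, whereas in root and in leaf it was below it.

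Unigene4988 (877 nt) had the flattest gradient of the 4, with 666 TPM in root, 218 TPM in stem and 70.1 TPM in leaf, and a root to leaf ratio of 5.83 (5.03 to 6.79). Unigene24311 (842 nt) had a similar root level, 658 TPM, but 94.3 TPM in stem and 18.4 TPM in leaf. Its root to leaf ratio was 21.9 (16.4 to 29.9), an interval that did not overlap that of Unigene4988. Unigenes of like abundance in root thus differed several-fold in leaf.

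At the low end of the range stood 2 long unigenes. Unigene1789 (3164 nt) had 15.0 TPM in root, 6.08 TPM in stem and 1.49 TPM in leaf, from 319, 86 and 17 counts. Unigene15107, the longest member at 6179 nt, had 15.9 TPM in root, 6.83 TPM in stem and 1.92 TPM in leaf, from 680, 194 and 44 counts. Its steps were 2.03 from root to stem (1.73 to 2.40) and 2.5 from stem to leaf (1.79 to 3.55).

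Which step was the larger depended on how the libraries were scaled. On the scale of the rule, the median root to stem ratio over the 82 was 3.01, and the median stem to leaf ratio was 2.41. Over all 3019 unigenes past the root floor the medians were 1.43 and 1.24. The range that the rule allowed was wider for root to stem, which 57 members filled at 2 to below 4 and 25 at 4 to below 8. From stem to leaf, 47 stood at 2 to below 2.5, 17 at 2.5 to below 3 and 18 at 3 to below 4. The root to stem step was the larger in 61 members and the stem to leaf step in 21. This turned on 2 of the other scales: with total counts the stem to leaf step was the larger in 62 members, with medians of 2.31 from root to stem and 3.32 from stem to leaf, and on deposited TPM it was the larger in 49, with medians of 3.46 and 3.43. Each range taken alone was met by 21.2% of the 3019 for root to stem and 6.89% for stem to leaf.

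The 25 members with a root to stem ratio of 4 or more and the other 57 were set side by side, though the split uses the ratio whose parts are then given. The median level of the 25 was 102 TPM in root, against 66.7 TPM in the other 57, and 12.2 TPM in stem, against 22.9 TPM. Their median stem to leaf ratio was 2.49, against 2.39, but the rule held both groups to 2 to below 4. Nothing is read from this likeness. In leaf the 25 stood at a median of 3.36 TPM, against 6.34 TPM in the other 57.

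**Figure D2:**
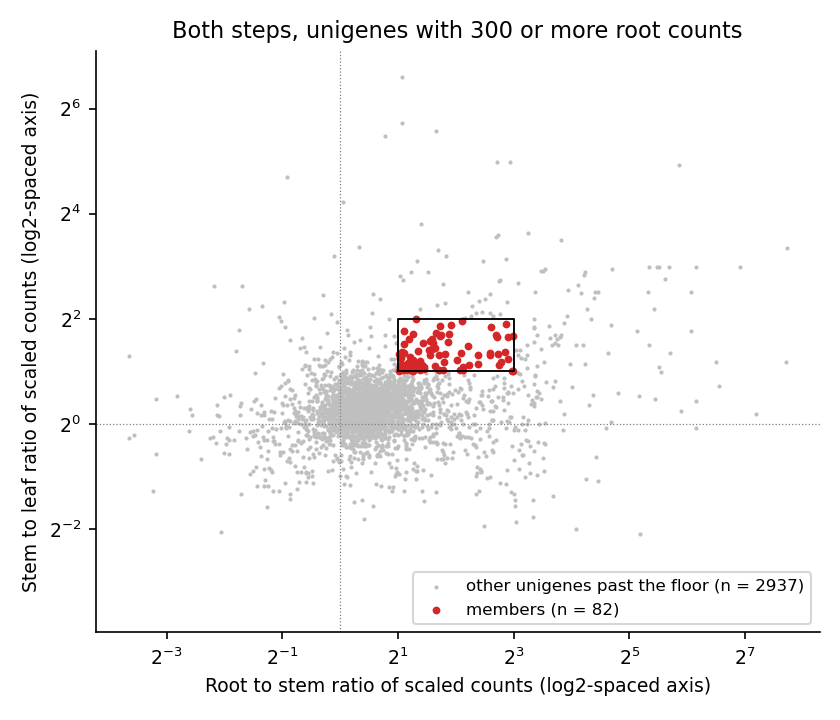
Root to stem ratio against stem to leaf ratio of scaled counts (both axes log2-spaced) for the 3019 unigenes with 300 or more root counts outside the 100 most counted; red points are the 82 members, grey points the other 2937, the box marks the ranges of the rule and dotted lines mark equality. Of the members, 57 have a root to stem ratio below 4 and 47 have a stem to leaf ratio below 2.5.

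From root to leaf the ratio ran from 4.04 to 27.5, with a median of 7.86, against 1.81 over all unigenes past the floor. It was below 8 in 42 members, 8 to below 16 in 29 and 16 or more in 11. Ratios of 8 or more were held by 7.82% of the 3019 and ratios of 16 or more by 4.67%. The summed counts of the 82 gave a root to leaf ratio of 8.09 (7.81 to 8.38), a root to stem ratio of 3.25 (3.20 to 3.31) and a stem to leaf ratio of 2.49 (2.39 to 2.58).

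The steepest member was Unigene43295 (1093 nt), with 669 root, 53 stem and 8 leaf counts. Its level was 102 TPM in root, 12.2 TPM in stem and 2.28 TPM in leaf, and its root to leaf ratio was 27.5 (13.9 to 64.0). Unigene48588 (2494 nt) followed with 614, 45 and 8 counts in the same order of tissues, 37.3 TPM in root, 4.10 TPM in stem and 0.90 TPM in leaf. Its root to leaf ratio was 25.3 (12.7 to 58.8). Both rested on 8 leaf counts, so their intervals span more than 4-fold and their order cannot be told.

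The flattest were Unigene60880 (1769 nt) and Unigene34674 (1346 nt). Unigene60880 had 32.5 TPM in root, 14.1 TPM in stem and 4.93 TPM in leaf, from 368, 106 and 30 counts, a root to leaf ratio of 4.04 (2.78 to 6.07). Unigene34674 had 71.1 TPM in root, 29.1 TPM in stem and 10.1 TPM in leaf, from 592, 161 and 45 counts, a ratio of 4.33 (3.19 to 6.0). These 4 unigenes were picked as the ends of the range of this ratio, so the distance between their intervals is a description only.

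The 11 members of ratio 16 or more were mostly weak in the shoot, though a split on this ratio itself favours low leaf levels and counts. Their levels ran from 32.8 to 658 TPM in root with a median of 84.7 TPM, from 3.6 to 94.3 TPM in stem with a median of 10.2 TPM, and from 0.90 to 18.4 TPM in leaf with a median of 2.28 TPM. Their median leaf count was 8. The 42 members below 8 had medians of 51.1 TPM in root, 19.9 TPM in stem and 5.69 TPM in leaf, with a median leaf count of 30.5.

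Counting error set how firmly each step was known, and the leaf step was the weaker. Counts of the 82 ran from 303 to 5159 in root (median 645.5), from 32 to 906 in stem (median 122.5) and from 7 to 188 in leaf (median 30). In leaf, 10 members had fewer than 10 counts and 62 had fewer than 50. The upper bound of the root to stem interval was a median of 1.48 times its lower bound, compared with 2.33 times for the stem to leaf interval.

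The intervals of both steps lay above 1 for 81 of the 82 and for 30.7% of the 3019, and that of the stem to leaf step alone for 44.0% of the 3019. Nothing is read from these counts, since the rule required ratios of 2 or more on the same reads. The member outside the 81 was Unigene41721 (2055 nt), singled out after its values were seen, with 438 root, 32 stem and 9 leaf counts and a stem to leaf ratio of 2.02 (0.94 to 4.8). On the scale of the rule, the lower bound was 2 or more for 58 members from root to stem and for 15 from stem to leaf. The shares over the 3019 were 18.2% and 3.35%. Both lower bounds were 2 or more in 12 members, and in 1.69% of the 3019. The rule allowed a wider range from root to stem, which favours the larger number of members there, so the steps are not compared by it. On total counts the lowest member ratio was 1.54 from root to stem and 2.76 from stem to leaf. With TMM factors the lowest were 2.13 and 1.98, so their order turned on the scale. From root to leaf, the lower bound was 4 or more in 60 members, and in 10.4% of the 3019.

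The upper bound reached the upper limit of the rule in 13 members from root to stem and in 35 from stem to leaf. The whole interval lay inside the range of the rule for 45 members from root to stem and for 1 from stem to leaf. That member, Unigene41282 (1981 nt), also singled out afterwards, had 172 TPM in root, 48.0 TPM in stem and 12.3 TPM in leaf, from 2210, 410 and 85 counts. Its root to stem ratio was 3.13 (2.81 to 3.49) and its stem to leaf ratio 2.73 (2.16 to 3.50). The set of 82 is thus a window cut through a continuous range of ratios, and at this depth its borders could not be placed for single unigenes.

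**Figure D3:**
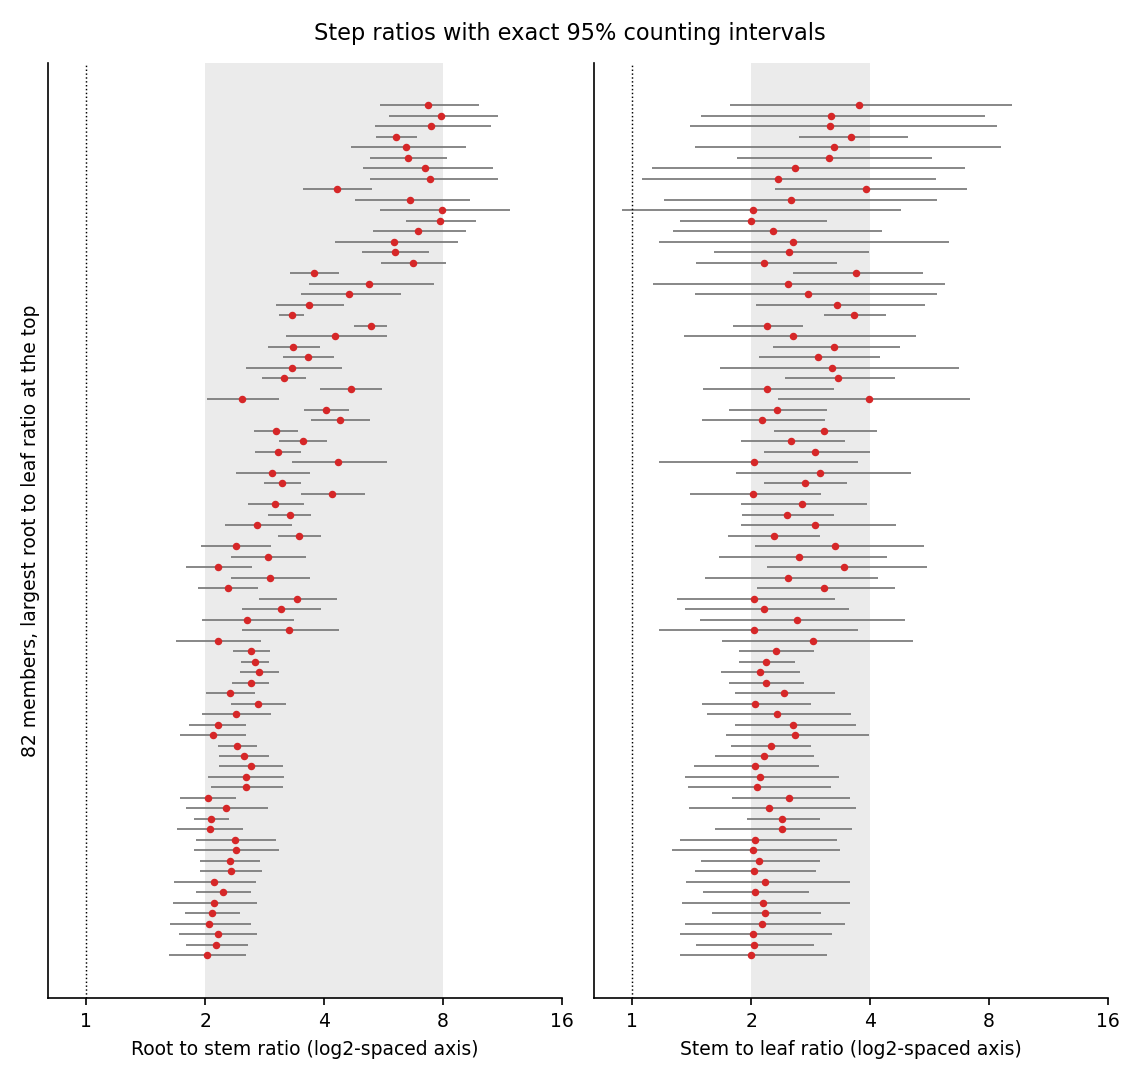
Root to stem (left) and stem to leaf (right) ratios of scaled counts for the 82 members with exact 95% counting intervals (log2-spaced axes), sorted by root to leaf ratio with the largest at the top; grey bands are the ranges of the rule and the dotted line is equality. Root to stem intervals are narrow and 58 lie wholly at 2 or more, whereas stem to leaf intervals are wide and 15 do. The range of the rule is wider for root to stem, which favours the larger number there.

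Values near the limits showed how close the cut was. Of the 82, 31 had a stem to leaf ratio within 10% above 2 and 14 a root to stem ratio within 10% above 2. The nearest values inside and outside the lower root to stem limit were 2.015 and 1.999, and those at its upper limit 7.946 and 8.268. For stem to leaf they were 2.003 and 1.991 at the lower limit and 3.969 and 4.063 at the upper. At the root floor they were 303 and 295 counts. The most counted member had a summed count of 6206, and the least counted of the 100 unigenes set aside had 6645.

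Length was not part of the rule, and the members were shorter than the other unigenes past the root floor. Their median length was 1498.5 nt (quartiles 1130.8 and 1901.8 nt), against 1816 nt (1209 and 2696 nt) in the other 2937. Because a floor on counts favours long unigenes, both were compared under the same floor. With 1000 root counts required, the medians were 1429 nt for the 27 members left and 1710 nt for the others. The gap lay among the long unigenes: 4 of the 589 unigenes of 3000 nt or more were members, a share of 0.679%, against 2.07% of those of 2000 to below 3000 nt, 3.83% of those of 1000 to below 2000 nt and 3.17% of those below 1000 nt.

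The 4 long members were Unigene258, Unigene1789, Unigene7855 and Unigene15107, singled out here by length after their values were seen. All 4 were near the low end of the members in level, at 15.0 to 25.8 TPM in root, 6.08 to 10.4 TPM in stem and 1.49 to 2.87 TPM in leaf. Their root to leaf ratios of 4.35 to 6.18 were below the member median of 7.86. The 15 members below 1000 nt ranged from 84.7 to 1474 TPM in root, 10.2 to 298 TPM in stem and 2.78 to 78.6 TPM in leaf. Their median root to leaf ratio was 12.0.

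A short unigene needs a higher TPM than a long one to reach 300 counts, so the floor ties length to level. Within classes of root TPM the length gap was not uniform. Below 50 TPM the median length was 1900.5 nt in members and 2501.5 nt in the others, but from 50 to below 100 TPM it was 1346 and 1319 nt, and from 100 to below 500 TPM 1286 and 1060 nt. At 500 TPM or more it was 829 nt in 4 members and 708 nt in 29 others. Members were thus the shorter in the lowest of these 4 classes and the longer in the other 3. They made up 2.03%, 2.71%, 3.93% and 12.1% of the classes, from the lowest TPM to the highest.

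**Figure D4:**
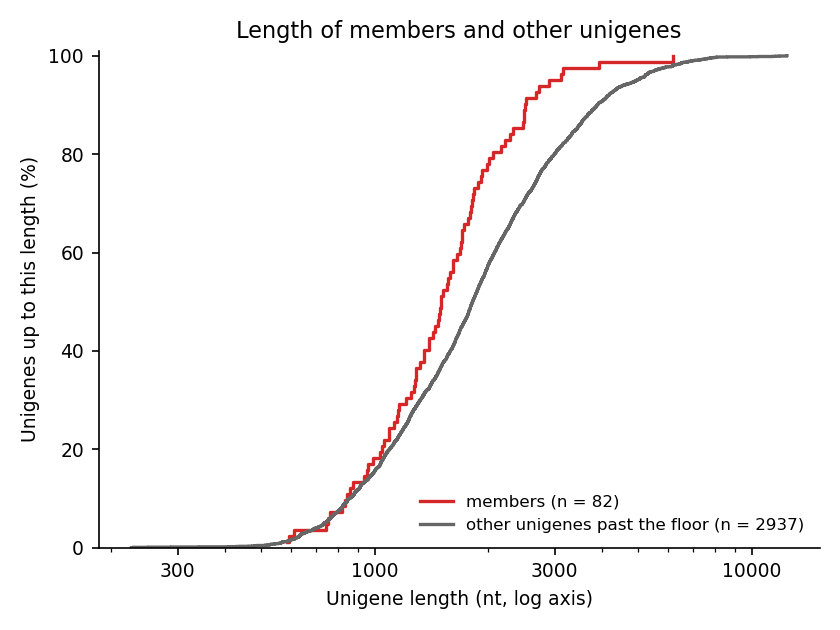
Cumulative share of unigenes (%) by length (nt, log axis) for the 82 members (red) and the other 2937 unigenes with 300 or more root counts outside the 100 most counted (grey). Both curves run together up to about 1000 nt and part above it, with medians of 1498.5 nt in members and 1816 nt in the others.

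Members were set beside unigenes with the same first step. The 640 unigenes past the floor with a root to stem ratio of 2 to below 8 were split by their stem to leaf ratio. On the scale of the rule, stem and leaf most often lay within 2-fold of each other. A stem to leaf ratio of 1 to below 2 was held by 367, and one of 0.5 to below 1 by 140. The members were 12.8% of the 640. A further 36 had a ratio of 4 or more and 15 one below 0.5. Median levels in root and stem were close to those of the members in the class next below, at 65.3 TPM in root and 20.6 TPM in stem. The leaf median of that class was 10.6 TPM, against 5.29 TPM in the members. Since the classes were cut on the stem to leaf ratio, a lower leaf level at a like stem level restates the split. Median length was 1852, 1651, 1498.5 and 1330 nt in the classes from 0.5 to below 1 up to 4 or more. Among these 4 classes it was lower with each steeper stem to leaf step. In the 15 below 0.5 it was 1801 nt. Median root level rose over the same 4 classes, at 50.5, 65.3, 70.0 and 88.6 TPM. The root floor ties length to level, and a length trend apart from level was not tested.

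Unigenes with neighbouring ID numbers can be pieces or variants of 1 locus, so the 82 need not be 82 genes. Members with consecutive numbers were 4 of the 82, or 4.88%, in 2 pairs. Among the unigenes with the same range of root to stem ratio, the share with one of the same class beside it was 9.26% (34 of 367) at a stem to leaf ratio of 1 to below 2 and 11.1% (4 of 36) at 4 or more. Unigene46403 (938 nt) and Unigene46404 (1347 nt) had nearly equal counts in each library, at 1867 and 1902 in root, 416 and 423 in stem, and 108 and 104 in leaf. Their root to stem ratios were both 2.61 and their stem to leaf ratios 2.18 and 2.31. Unigene74490 (2009 nt) and Unigene74491 (1794 nt) had 1378 and 1499 counts in root, 262 and 275 in stem, and 51 and 47 in leaf. Their root to leaf ratios were 8.89 (6.72 to 12.0) and 10.5 (7.85 to 14.3). The intervals overlapped within each pair, at every step. Whether the authors rounded the expected counts or counted only reads with a single target is not known, so reads shared within a pair may have been split or lost, which was not tested.

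The steepest 2 members each had graded unigenes on both sides that the limits of the rule left out. Beside Unigene43295, Unigene43294 (566 nt) had 350 root, 30 stem and 4 leaf counts, and Unigene43296 (689 nt) had 475 root, 44 stem and 6 leaf counts. Their root to leaf ratios were 28.8 and 26.1, against 27.5 in the member between them, and their stem to leaf ratios of 4.25 and 4.16 lay just above the limit of 4. Beside Unigene48588, Unigene48587 (1263 nt) had 1534, 95 and 19 counts and Unigene48589 (1838 nt) had 869, 43 and 14. Their root to leaf ratios were 26.6 and 20.4, against 25.3 in the member, and their root to stem ratios of 9.37 and 11.7 lay above the limit of 8. The stem to leaf ratio of Unigene48589, 1.74, was also below the limit of 2. These neighbours were singled out after the values of the members were seen.

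Over all members, 22 unigenes that were not members stood at a next or previous number and past the root floor. Of these, 11 had a root to leaf ratio of 4 or more, a level met by 14.6% of the 3019, and their median ratio was 4.08. Root was above stem and stem above leaf in 18 of the 22, as in 64.9% of the 3019. At least 1 unigene past the floor stood beside 24 of the 82 members, or 29.3%, against 26.0% of all unigenes past the floor.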

How the data were processed

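Root, stem and leaf were represented by 1 library each. The submitters' processing notes list Trimmomatic and RSEM with no version. Assembler and aligner: not given in the sources used here. The authors, per the file headers, deposited for each unigene a length, an effective length, an RSEM expected count, a TPM and an FPKM. The expected counts of all members were whole as deposited, although RSEM can give fractions; rounding and the omission of reads with several targets cannot be told apart, so counts and intervals of near-identical unigenes are uncertain. The deposited TPM of members lay within 0.49% of values recomputed from count and effective length, and the deposited FPKM matched the merged table with 0 differences, so neither adds information.

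Members were selected as the opening states, on expected counts, in Python 3.11.15 with pandas 2.3.3, numpy 2.4.6 and scipy 1.17.1. The calculation was tested on simulated data. No test between tissues was run, because the spread within a tissue cannot be estimated from 1 library. TMM factors (edgeR 4.0.16) and DESeq2 1.42.0 size factors under R 4.3.3 served as alternative scales only.

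The members, classes and alternatives were chosen with earlier results of these data known. The unigenes set beside the members passed the same floor of 300 root counts. The rule for IDs named the 2 members of highest and of lowest root TPM, the 2 of largest and of smallest root to leaf ratio, the longest, the shortest, and up to 3 consecutive pairs, of which 2 existed; other IDs are marked as singled out.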

Additional observations from a re-analysis of the deposited data

How the results depend on the processing

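Alternatives gave 37 values, of which 21 were labelled unchanged and 16 moved. Numbers of members were allowed 1.5 times and shares their counting interval. Median ratios were allowed the span from the median lower to the median upper bound of single members, which is wide. From stem to leaf it was 1.6 to 3.68, so 3.32 on total counts and 3.43 on deposited TPM, against 2.41, were labelled unchanged. Median lengths, also labelled unchanged, have no counting interval. The number of members was 83 with TMM factors (75 of them shared with the 82) and 74 with DESeq2 size factors (66 shared). It was 293 on deposited TPM (55 shared) and 121 on total counts (33 shared). The label for numbers ignores which unigenes are members, so the 121 was labelled unchanged although only 33 were shared. Over the unigenes past the floor, deposited TPM moved log2 ratios by a median of 0.20 from root to stem and 0.51 from stem to leaf, and total counts moved them by -0.38 and 0.46. The number was 49 with the 1000 most counted unigenes left out, 182 with 100 root counts required, 27 with 1000, 188 without upper limits (6.23% of the 3019) and 1 with whole intervals inside the ranges. With lower bounds of 2 or more and no upper limits, chosen after seeing the data, it was 51, of which 12 were members; a summed floor of 450 counts, also chosen then, gave 73. With members kept, total counts gave a median root to stem ratio of 2.31 and left 50 with both steps at 2-fold or more, and deposited TPM gave a median root to leaf ratio of 12.8. The members held 0.791% of all root counts, 0.317% of all stem counts and 0.0926% of all leaf counts, and 1.17%, 0.287% and 0.0811% of the deposited TPM of root, stem and leaf. Leaving out a replicate was impossible. No paired analysis was possible because there was a single library per tissue. Depth in leaf limits the stem to leaf step.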

Other observations

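Only 8 of the 3019 unigenes past the root floor had both steps inside the inverse ranges, with leaf above stem and stem above root, against the 82 members; a floor on root counts disfavours such unigenes. The members were spread over the whole ID range. In blocks of 10000 numbers their share of the unigenes past the floor ran from 1.64% (3 of 183, numbers 10000 to 19999) to 5.45% (6 of 110, numbers from 70000).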
